A study of Mus musculus with 10 samples.

Results

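Chemokines are small secreted proteins that attract leukocytes, and the 10 chemokine genes described here are Ccl2, Ccl3, Ccl4, Ccl5, Ccl7, Ccl17, Cxcl1, Cxcl2, Cxcl9 and Cxcl10. They were chosen by name as chemokines known to respond to bacterial lipopolysaccharide (LPS), the cell wall component that is widely used to provoke fever and inflammation. Every probe set whose annotation names exactly 1 gene, with that gene on the list, was taken, dim ones included. This gave 13 probe sets of the 45037 on the array that are not controls, for 10 of the 18193 genes that a probe set names alone. Cxcl1 had 3 probe sets, Cxcl9 had 2 and each other gene had 1.

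The arrays measured RNA of the preoptic part of the hypothalamus, which controls body temperature, after laser capture microdissection. Of the mice, 5 were labelled KO for mPGES-1 (gene Ptges), the inducible synthase of prostaglandin E2, and 5 were labelled WT. All 10 mice had the DBA1/lacJ background and had received 120 µg/kg of LPS into the peritoneum, with brains taken 5 h later. Each mouse gave 1 array, after 2 rounds of RNA amplification. Neither the removed stretch of Ptges nor the cells in which it is missing is given in the labels. Untreated mice were not analysed here, so the levels below are levels under LPS and do not show how far LPS raised any gene.

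Chemokines bind receptors coupled to G proteins on leukocytes and form gradients on the vessel wall that guide cells out of the blood. Their names follow the spacing of the first cysteines of the protein, CC or CXC. In the brain under LPS they are known from endothelium, perivascular macrophages, microglia and astrocytes, and their transcription is known to depend on NF-kB, on interferon-activated factors, or on both.

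Promoter sequences show which members carry the letters that NF-kB and interferon-activated factors are known to bind, and the windows below are those of the 6 members listed in the promoter table (RefSeq, GRCm38.p6, the C57BL/6J reference, while the mice were DBA1/lacJ). Capitals mark matches, on either strand, to an NF-kB-type motif (GGGA, then any 4 bases, then CC) or to an interferon-type motif (GAAA, then any 2 bases, then GAAA). Each sequence runs 5′ to 3′ on the gene's own strand and ends at the base before the annotated start, except that of Cxcl10, which runs from position -223 to -74. Of these windows, Cxcl1 lies at chr5:90891125-90891244 (plus strand), Cxcl2 at chr5:90903779-90903898 (plus strand), Cxcl9 at chr5:92328080-92328219 (minus strand), Cxcl10 at chr5:92348963-92349112 (minus strand), Ccl17 at chr8:94810333-94810452 (plus strand) and Ccl3 at chr11:83649379-83649498 (minus strand).
Cxcl1: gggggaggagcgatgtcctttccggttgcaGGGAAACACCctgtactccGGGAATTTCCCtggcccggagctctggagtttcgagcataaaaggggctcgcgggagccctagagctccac
Cxcl2: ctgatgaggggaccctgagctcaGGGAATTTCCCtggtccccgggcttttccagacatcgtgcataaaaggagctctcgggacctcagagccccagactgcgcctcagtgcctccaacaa
Cxcl9: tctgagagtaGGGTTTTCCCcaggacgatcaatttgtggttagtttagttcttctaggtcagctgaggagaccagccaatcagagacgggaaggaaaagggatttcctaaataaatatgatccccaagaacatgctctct
Cxcl10: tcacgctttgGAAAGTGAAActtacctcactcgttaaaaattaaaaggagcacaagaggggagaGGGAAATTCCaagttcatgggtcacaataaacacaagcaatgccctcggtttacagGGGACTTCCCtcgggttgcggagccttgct
Ccl17: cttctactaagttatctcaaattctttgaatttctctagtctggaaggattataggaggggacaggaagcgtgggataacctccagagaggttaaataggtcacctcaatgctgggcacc
Ccl3: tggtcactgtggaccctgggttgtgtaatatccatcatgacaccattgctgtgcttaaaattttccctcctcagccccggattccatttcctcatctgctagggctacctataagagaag

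The neighbouring genes Cxcl1 and Cxcl2 shared the letters GGGAATTTCC, which begin at positions -71 and -97 before their starts, and a match on the other strand overlaps each of them by all but 1 base. Cxcl1 held a further match, GGGAAACACC, at -90. Cxcl9 held GGGTTTTCCC at -130. Cxcl10 held GGGAAATTCC at -159 and GGGACTTCCC at -103, the second of these matching on both strands, and was the 1 member of the 6 with the interferon-type letters, GAAAGTGAAA at -213. In the 250 bases before the start, Ccl17 and Ccl3 held neither motif. The NF-kB-type motif occurs in 17.6% and the interferon-type motif in 2.98% of the 32851 promoters of the table, so 4 of 6 and 1 of 6 members are descriptions of these windows and not evidence of binding. Ccl2, Ccl4, Ccl5 and Ccl7 are not shown.

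The deposited intensities had been scaled so that every array had a trimmed mean of 200.002, and their medians were 24.7 to 29.9 on the labelled KO arrays and 32.0 to 44.8 on the labelled WT arrays. The mean signal of the poly-A spike-in control probe sets was near 0 on KO replicate 3 and WT replicates 2 and 5 (3.9, 13.6 and 6.0, against 437 to 1659 on the other 7 arrays). The ratio of 3′ to 5′ Gapdh signal, a sign of RNA length, was 33.2 to 51.5 on labelled KO and 24.6 to 53.4 on labelled WT arrays. Ptges, the targeted gene, was not lower on the arrays labelled KO. Its probe set 1439747_at read 76.1, 17.5, 56.2, 67.8 and 32.2 on the labelled KO arrays and 5.29, 2.22, 9.33, 4.36 and 1.51 on the labelled WT arrays. The difference was 1.60 on the log2 scale (SE 0.31, limma adjusted p = 0.111). The other 2 Ptges probe sets differed by 0.95 and 0.27 (limma adjusted p = 0.302 and 0.774). Since the removed stretch is not given, this does not check the labels, and the groups are called labelled KO and labelled WT throughout.

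Between the labelled genotypes, no chemokine of the list passed the test over all probe sets, but Ccl17 was lower on every labelled KO array than on any labelled WT array. Its labelled KO to WT ratio was 0.501 for intensity + 16. Ccl4 was also lower on average and its groups overlapped. For the other 8 genes the 95% interval of the difference included 0 at every probe set, and the range between mice of one genotype reached 23.7-fold for Cxcl1 (1441855_x_at) and 167-fold for Cxcl9 (1418652_at) within the WT group. The Cxcl9 range rests on a very low value of 3.34 in WT replicate 1. Differences are given as labelled KO minus labelled WT of log2(intensity + 16), which understates the change of dim genes, with limma's p adjusted over all 45037 probe sets by Benjamini-Hochberg. Exact permutation tests ran over all 252 arrangements of 5 and 5 arrays, two-sided, and cannot go below p = 0.0079.

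**Figure D1:**
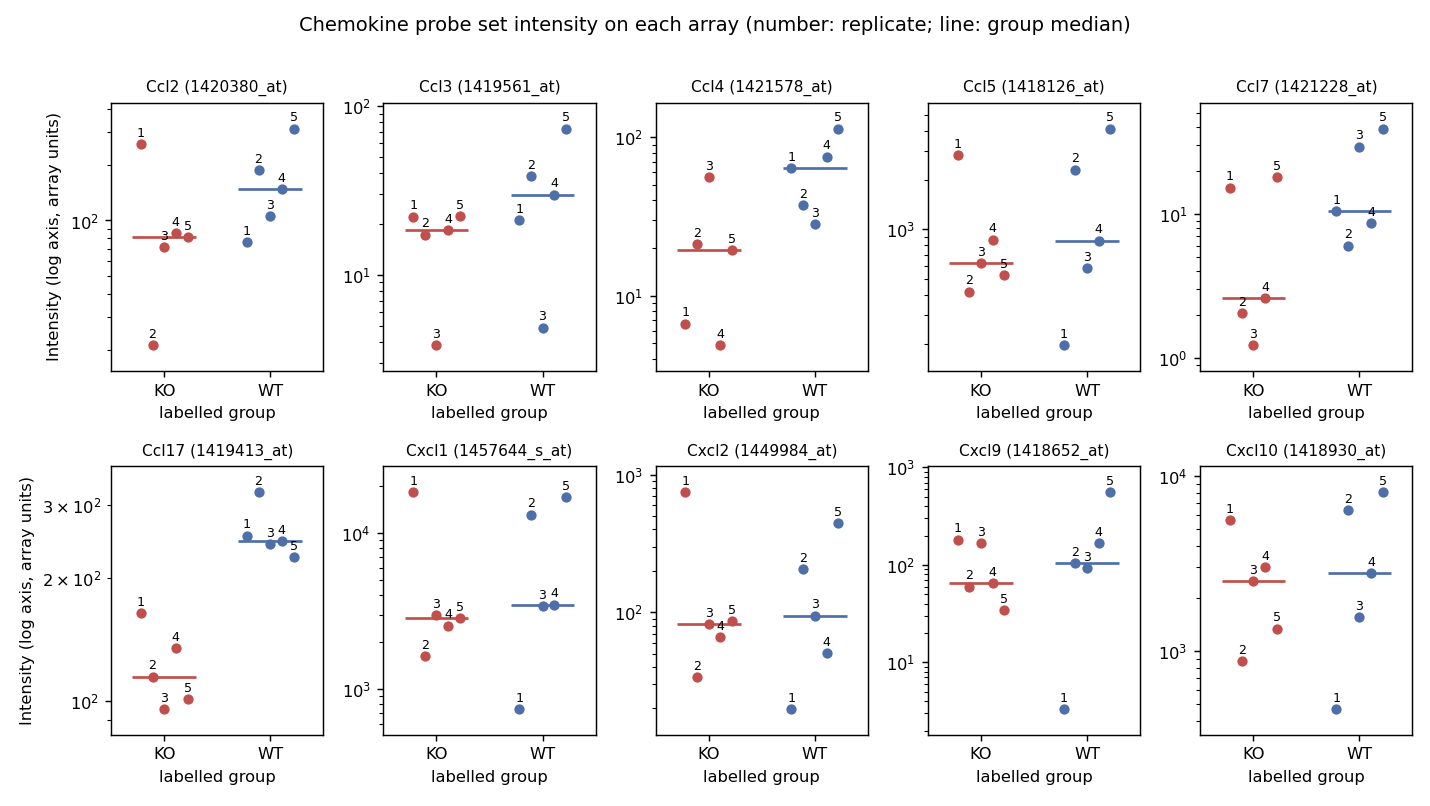
Intensity of the brightest probe set of each chemokine gene (log axis, array units, own range per panel) on the 5 labelled KO and 5 labelled WT arrays, each point 1 mouse with its replicate number and the line at the group median. Ccl17 separates the labelled groups (labelled KO 95.9 to 164, labelled WT 225 to 323), while KO replicate 1 and WT replicates 2 and 5 stand above the rest for Cxcl1, Cxcl2, Ccl5 and Cxcl10.

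Of the 13 probe sets, 0 had a limma adjusted p below 0.05, and over all probe sets the share was 0.0%, the smallest adjusted p of any being 0.111. At an unadjusted p below 0.05 there were 2 of 13, Ccl17 and Ccl4, both lower in labelled KO, against 12.6% of all probe sets in either direction and 8.97% in the lower direction, so the count stands near the background. With the hybridization control signal as a covariate there were 4 of 13, Ccl3, Ccl4, Ccl7 and Ccl17, all lower, against 7.52% of all probe sets in either direction and 4.57% in the lower, and none passed the adjusted test. With 1 probe set per gene there was 1 of 7 genes, Ccl17, against 17.2% and 8.96% of all genes. In the other direction, the dim Cxcl9 probe set 1456907_at was higher at a limma unadjusted p below 0.05 under 4 settings. These were quantile normalization (0.54), median centring (0.62), only the arrays with spike-in signal (0.64) and without WT replicate 2 (0.55). No setting called a chemokine of the list at the adjusted threshold, although median centring called 1.22% of all probe sets, 1 probe set per gene 0.0733% of genes and the replicate number as a block 0.00222% of probe sets. The groups did not overlap at 1 of 13, Ccl17, against 3.22% of all probe sets in either direction and 2.42% in the lower. The difference was below 0 at 10 of 13, against 65.1% of all probe sets. The median of the 13 was -0.29, beside -0.13 over all probe sets and -0.18 over the dimmest 40%. Quantile normalization moved the median of all probe sets to -0.01 and left that of the chemokines at -0.25, while median centring moved them to 0.15 and -0.01. The chemokines' median did not stay below that of all probe sets under every setting. It was 0.64 against -0.10 over only the arrays with spike-in signal, -0.01 against -0.12 with spike-in signal as a block, 0.20 against -0.13 without WT replicate 5, 0.007 against -0.10 without WT replicate 2 and -0.06 against -0.13 without KO replicate 2.

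**Figure D2:**
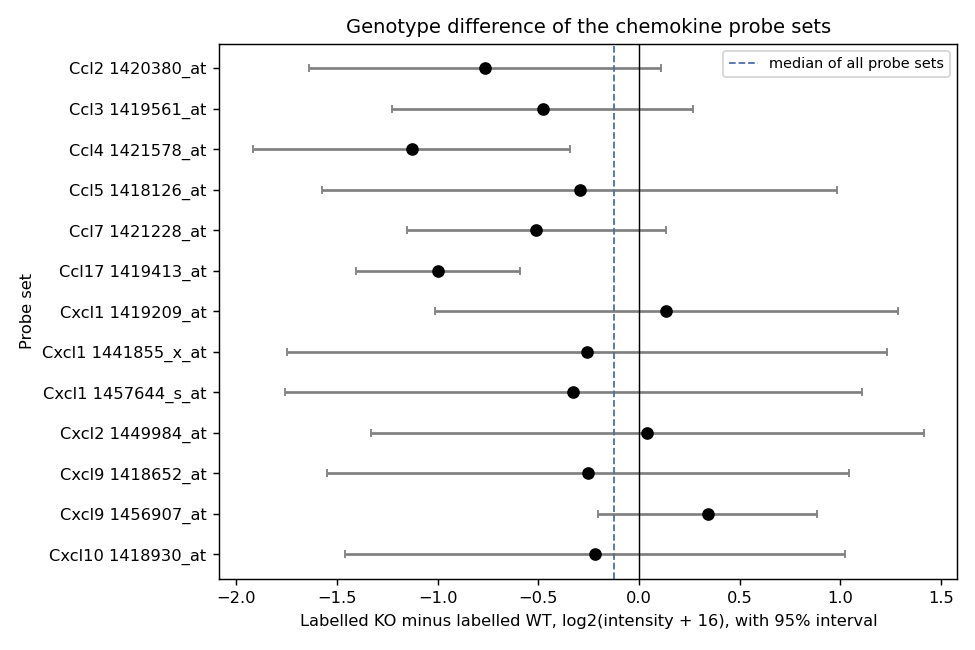
Difference between labelled KO and labelled WT arrays at each of the 13 chemokine probe sets, in log2(intensity + 16), with its 95% interval (5 arrays a group). The solid line is 0 and the dashed line is the median of all probe sets, -0.13. The intervals of Ccl17 (-1.40 to -0.59) and Ccl4 (-1.92 to -0.34) lie below 0, and the other 11 include it.

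Cxcl1 and Cxcl2 are ligands of Cxcr2 and the main attractants of neutrophils in the mouse. Cxcl1 at its brightest probe set, 1457644_s_at, read 18295, 1621, 2967, 2550 and 2848 in labelled KO mice. In labelled WT mice it read 748, 13158, 3391, 3476 and 17001. KO replicate 1 and WT replicates 2 and 5 were the 3 highest, the lowest of them 3.79-fold above the next array, WT replicate 1 lay lowest, and the groups overlapped. The difference was -0.33 (SE 0.68, 95% interval -1.76 to 1.11, limma adjusted p = 0.866). The probe set's name ending in _s_at marks probes that can bind related transcripts. A second one, 1441855_x_at, ran from 797 to 11335 in labelled KO and from 383 to 9090 in labelled WT mice, with a difference of -0.26 (SE 0.71, limma adjusted p = 0.902). The last, 1419209_at, was dimmer, at 27.1 to 446 in labelled KO and 19.4 to 307 in labelled WT mice, and differed by 0.14 (SE 0.55, limma adjusted p = 0.937). The same 3 mice were highest at all 3 probe sets, but the sign of the genotype difference was not the same, and without WT replicate 5 the first probe set's difference became 0.15.

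Cxcl2, the other Cxcr2 ligand, read 746, 33.7, 81.5, 66.2 and 86.4 in labelled KO mice, against 19.9, 205, 94.5, 50.4 and 445 in labelled WT mice. The highest and the lowest mouse of a genotype differed 22.2-fold in KO and 22.4-fold in WT. KO replicate 1 and WT replicates 5 and 2 were again the 3 highest. The difference was 0.04 (SE 0.65, 95% interval -1.33 to 1.41, limma adjusted p = 0.985), and leaving out KO replicate 1 turned it to -0.61 (adjusted p = 0.669). The interval allows a labelled KO level between 0.398 and 2.67 times that of labelled WT, so the arrays do not exclude a difference of that size. Cxcr2, their receptor, was dim and differed by -0.16 (limma adjusted p = 0.805), but by 0.12 with median centring. Of 8 neutrophil marker genes, 7 were measured (2 dim, no value at 0), with summed intensities of 130.3 to 633 in labelled KO and 183 to 1304 in labelled WT mice. Of these 7, 1 was lower at an unadjusted p below 0.05, Csf3r (-0.74, limma adjusted p = 0.351), against 8.68% of all genes in that direction, and 0 passed the adjusted test. The part of these cells in the Cxcl1 and Cxcl2 values was not tested, and in tissue RNA fewer cells of a type and less RNA per cell cannot be told apart.

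Cxcl9 and Cxcl10 are ligands of Cxcr3, the receptor of activated T and natural killer cells, and both are classed as interferon-inducible. Cxcl10 read 5592, 882, 2505, 3011 and 1347 in labelled KO mice, against 469.9, 6353, 1571, 2799 and 8051 in labelled WT mice. WT replicates 5 and 2 and KO replicate 1 were the 3 highest and WT replicate 1 the lowest. The difference was -0.22 (SE 0.59, 95% interval -1.46 to 1.02, limma adjusted p = 0.901), and without WT replicate 5 it was 0.19. Cxcl9 at 1418652_at read 182, 59.7, 166, 64.7 and 34.6 in labelled KO mice. In labelled WT mice it read 3.34, 105, 92.1, 169 and 556. Within the WT group that is a 167-fold range, against 5.25-fold in KO, and it rests on WT replicates 1 and 5 as the lowest and highest. The difference was -0.25 (SE 0.62, limma adjusted p = 0.887), and without WT replicate 5 it was 0.31. The second Cxcl9 probe set, 1456907_at, was dim, at 6.61 to 17.2 in labelled KO and 0.929 to 24.5 in labelled WT mice, and differed by 0.34 (SE 0.26, limma adjusted p = 0.599).

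Cxcr3 differed by -0.54 (limma adjusted p = 0.569), and by 0.03 with the hybridization control signal as a covariate. Ifng, the cytokine that gives Cxcl9 its older name, differed by 0.22 (limma adjusted p = 0.846). Of 20 interferon-response genes 18 were measured. At the unadjusted level 0 were higher and 1 was lower, Tap1, the peptide transporter of antigen presentation (-0.60, limma adjusted p = 0.293), against 14.0% of all genes in either direction (1 probe set a gene). Their summed intensity was 12194 to 36163 in labelled KO and 12526 to 58783 in labelled WT mice, highest in WT replicates 5 and 2 and KO replicate 1.

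Ccl2 and Ccl7 are neighbouring genes and ligands of Ccr2, the receptor that brings monocytes out of the blood. Ccl2 read 260.3, 21.1, 71.6, 85.3 and 81.2 in labelled KO mice, against 76.4, 188, 106, 148 and 315 in labelled WT mice. KO replicate 1 was the second highest of the 10, the other 4 KO values lay between 21.1 and 85.3, and WT replicate 1 was the 1 WT mouse within that range. The difference was -0.76 (SE 0.42, 95% interval -1.64 to 0.11, limma adjusted p = 0.451; exact permutation p = 0.2143), and it was below 0 under all 22 other settings, between -1.16 and -0.29. Ccl7 was dim, at 1.23 to 17.9 in labelled KO and 6.05 to 39.1 in labelled WT mice, and differed by -0.51 (SE 0.31, limma adjusted p = 0.494). Its size depended on the setting, at -1.39 and -0.19 with pseudocounts of 1 and 64, -1.08 with the hybridization covariate and -0.32 without WT replicate 5. Ccr2, also dim, read 3.72, 7.54, 2.52, 3.63 and 2.91 in labelled KO mice and 42.9, 87.6, 12.2, 4.18 and 4.56 in labelled WT mice. It differed by -0.90 (SE 0.37, limma adjusted p = 0.335), with WT replicates 4 and 5 inside the KO range.

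Ccl3, Ccl4 and Ccl5 are CC chemokines that attract monocytes and T cells. Ccl3 and Ccl4, adjacent genes known from activated microglia and macrophages, were near the middle of the array's intensities (44.4 and 54.1 percentile). Ccl4 read 6.67, 21.2, 55.8, 4.88 and 19.5 in labelled KO mice, against 64.03, 37.4, 28.3, 75.5 and 113 in labelled WT mice. Of the KO mice, replicate 3 lay inside the WT range and the other 4 below it. The means were 21.6 ± 20.5 in labelled KO and 63.7 ± 33.8 in labelled WT mice (SD, n = 5 each). The difference was -1.13 (SE 0.38, 95% interval -1.92 to -0.34), at 0.457 of the WT level, with limma p = 0.00755 and adjusted p = 0.238 (exact permutation p = 0.0397). It was below 0 under all 21 other settings, between -1.82 and -0.57, with adjusted p between 0.158 and 0.546.

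Ccl3 read 22.1, 17.3, 3.82, 18.3 and 22.2 in labelled KO mice, against 21.1, 38.3, 4.86, 29.8 and 73.4 in labelled WT mice. KO replicate 3 and WT replicate 3 were far below the rest. The difference was -0.48 (SE 0.36, limma adjusted p = 0.591), and under 21 other settings it lay between -1.17 with the hybridization covariate and 0.13 over only the arrays with spike-in signal. Ccl5, known from T cells and from interferon-treated glia and endothelium, read 2846, 418, 626, 868 and 528 in labelled KO mice. In labelled WT mice it read 197, 2313, 579, 854 and 4112. As for Cxcl10, WT replicates 5 and 2 and KO replicate 1 were the 3 highest. The difference was -0.29 (SE 0.61, limma adjusted p = 0.865), and 0.21 without WT replicate 5.

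Of 12 microglia markers, 11 were measured (2 dim, no value at 0). Of these, 9 were lower and 2 higher, with a median of -0.34, and -0.08 after quantile normalization. At a limma unadjusted p below 0.05, 1 was lower and 0 higher, against 8.68% and 5.32% of all genes. Sums were 4879 to 7084 in labelled KO and 6876 to 10504 in labelled WT mice, and Csf1r made up most of each sum. Beside Ccl3 and Ccl4, Csf1r, the receptor that keeps microglia alive, was below every WT array on every KO array (labelled KO 4477 to 6213, labelled WT 6241 to 9479, difference -0.58, limma adjusted p = 0.171). The groups were apart in that direction at 2.42% of all probe sets. Itgam and Cx3cr1 differed by -0.50 and -0.65 (limma adjusted p = 0.509 and 0.443). The part of microglial content in the Ccl4 values was not tested.

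Ccl17 is a ligand of Ccr4, the receptor of T helper type 2 and regulatory T cells, and is known as a product of dendritic cells. It read 164, 115, 95.9, 135 and 101 in labelled KO mice, against 253, 323, 242, 246 and 225 in labelled WT mice. Every KO value lay below every WT value, with a gap between 164 in KO replicate 1 and 225 in WT replicate 5. The means were 122 ± 27.9 in labelled KO and 258 ± 38.0 in labelled WT mice (SD, n = 5 each). Within a genotype the highest and lowest mouse differed 1.71-fold in KO and 1.44-fold in WT, the smallest ranges of the 13 probe sets. The difference was -0.998 (SE 0.19, 95% interval -1.40 to -0.59), a labelled KO level of 0.501 of the WT level (0.378 to 0.663). By limma's unadjusted p of 6.64e-05 Ccl17 ranked 26th of all probe sets. Its adjusted p was 0.114, so it did not pass the threshold, and the exact permutation p was 0.0079, the smallest possible.

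Under all 22 other settings Ccl17 was below 0, between -1.10 and -0.72, with adjusted p between 0.052 (1 probe set per gene, dimmest genes left out) and 0.564 (hybridization control signal as a covariate). Over only the 7 arrays with spike-in signal the difference was -0.88 (adjusted p = 0.312). On the 3 arrays without that signal, Ccl17 read 95.9 in KO replicate 3, against 323 and 225 in WT replicates 2 and 5. The hybridization control signal was itself lower on labelled KO arrays, 10.2 to 11.1 on the log2 scale against 10.8 to 12.2 on labelled WT arrays, and its part in the result was not tested.

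**Figure D3:**
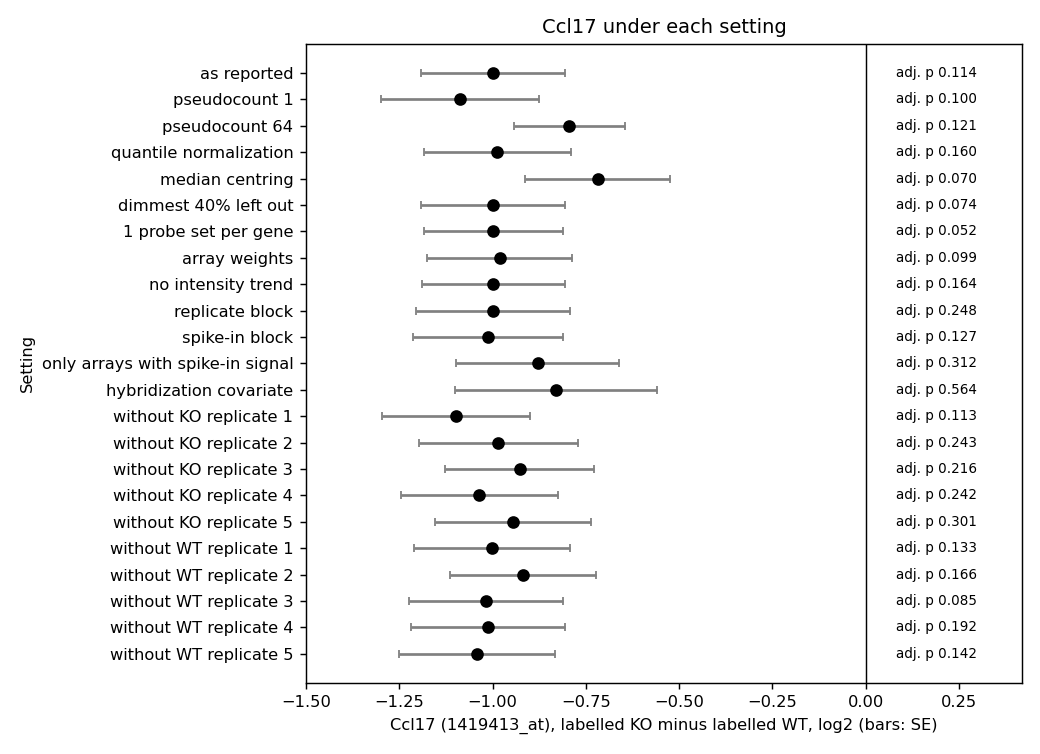
Difference of Ccl17 between labelled KO and labelled WT arrays (log2, with SE) as reported and under the 22 other settings, with the adjusted p at the right. Every point lies below 0, from -1.10 to -0.72, and no setting reaches an adjusted p below 0.05.

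Several cell type markers also stood lower on labelled KO arrays, none of them past the adjusted test. Esam, an adhesion molecule of endothelium, read 33.3 to 51.3 in labelled KO and 57.5 to 118 in labelled WT mice (-0.87, limma adjusted p = 0.183). Gfap, the intermediate filament of astrocytes, read 3889 to 6207 in labelled KO and 6563 to 10308 in labelled WT mice (-0.73, limma adjusted p = 0.143). With an unadjusted p below 0.05, 3 of 10 brain endothelium markers (2 dim) were lower and 0 higher, against 8.68% of all genes lower and 5.32% higher, which are the shares to set beside the counts that follow. The 3 were Esam, Slc2a1 and Flt1 (the last 2 at -0.47 and -0.53, limma adjusted p = 0.199 and 0.357). Their summed intensity was 3728 to 4805 in labelled KO and 4671 to 7107 in labelled WT mice. Among T and natural killer cell markers, of which 8 of 10 were measured and 6 were dim, 3 were lower at that level, Cd8a, Cd3d and Gzmb (-0.87, -0.62 and -0.55, limma adjusted p = 0.241, 0.254 and 0.382), with sums of 58.4 to 145 in labelled KO and 125 to 272 in labelled WT mice. Of 10 neuron markers, 6 were higher and 4 lower, with a median of 0.04. At that level 3 were higher and 0 lower, Gad1, Snap25 and Slc17a6 (0.97, 0.60 and 0.41, limma adjusted p = 0.179, 0.182 and 0.282). Sums of the neuron markers were 21326 to 32203 in labelled KO and 21624 to 26395 in labelled WT mice. Perivascular macrophage markers had 1 of 6 lower, Ms4a7 (-0.78, limma adjusted p = 0.365), with sums of 226 to 435 in labelled KO and 201.5 to 442 in labelled WT mice. Besides Gfap, 1 of 8 astrocyte markers was lower, Aldoc (-0.29), and 1 was higher, Gja1 (0.46; limma adjusted p = 0.357 and 0.352), and 1 of 7 oligodendrocyte markers was lower, Mog (-0.80, limma adjusted p = 0.311). Of 8 pericyte and 8 choroid plexus or meningeal markers, 0 had an unadjusted p below 0.05. No marker of these lists had a value of 0, and the part of tissue composition in the Ccl17 difference was not tested.

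Across mice, 5 of the 10 genes were highest in the same 3 animals, which came from both labelled genotypes. KO replicate 1 and WT replicates 2 and 5 were the 3 highest arrays at 7 probe sets of 5 genes, Ccl2, Ccl5, Cxcl1, Cxcl2 and Cxcl10. Between the third and the fourth highest array the ratio was 3.79 for Cxcl1, 2.67 for Ccl5, 2.17 for Cxcl2, 1.86 for Cxcl10 and 1.27 for Ccl2. From the lowest to the highest mouse Cxcl2 varied 37.5-fold, Cxcl1 24.5-fold, Ccl5 20.9-fold, Cxcl10 17.1-fold, Ccl2 14.9-fold and Ccl17 3.37-fold. The SD within a genotype was above that of 90% of all probe sets at 9 of the 13, and Ccl17's stood at the 12.3 percentile.

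The mean of the members on the log2 scale was 8.56, 6.78, 7.41, 7.30 and 7.23 in labelled KO mice, and 6.65, 8.43, 7.54, 7.86 and 9.26 in labelled WT mice. WT replicate 1 was the lowest array at 8 probe sets, and KO replicate 2 was among the 3 lowest at 11. Of the 3 high arrays, WT replicates 2 and 5 lacked spike-in signal and KO replicate 1 had it, while KO replicate 3, which lacked it, was not high. Whether the handling of these arrays has a part in the pattern was not tested. The 3′ to 5′ Gapdh ratio was 47.4 on KO replicate 1 and 33.8 and 24.6 on WT replicates 2 and 5, within or below the range of the other arrays.

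**Figure D4:**
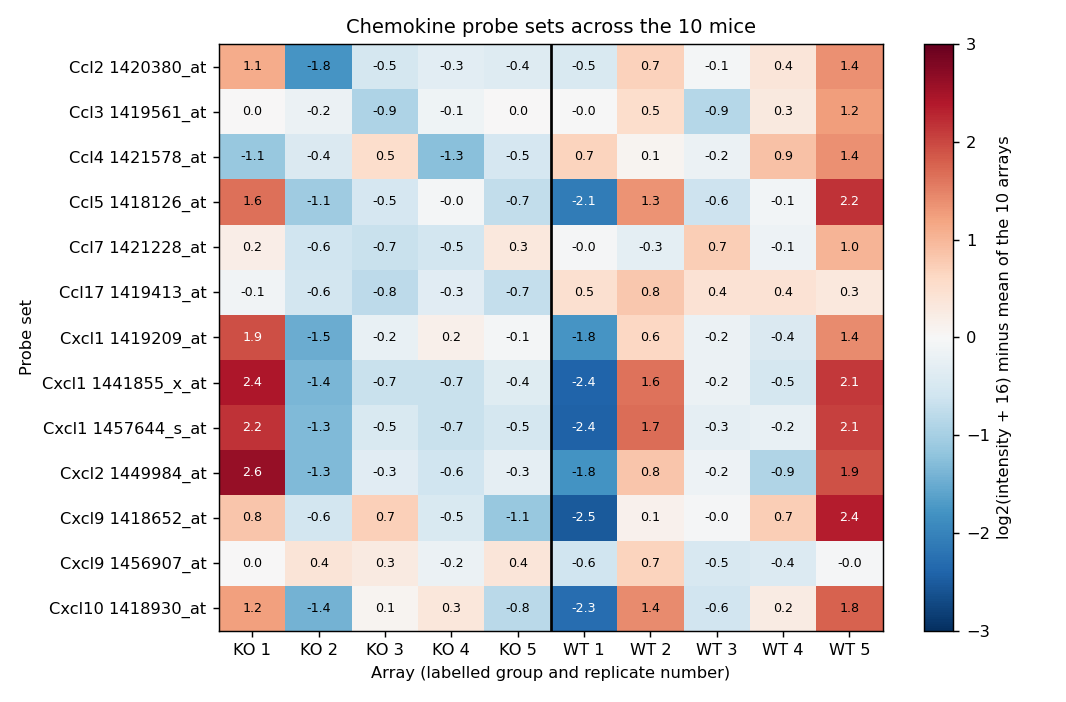
Each chemokine probe set (rows) on each array (columns, labelled KO left of labelled WT), as log2(intensity + 16) minus the mean of the 10 arrays, red above and blue below that mean. KO replicate 1 and WT replicates 2 and 5 are red for Ccl2, Ccl5, Cxcl1, Cxcl2 and Cxcl10, WT replicate 1 is deep blue for Cxcl1, Cxcl2, Cxcl10, Ccl5 and the brighter Cxcl9 probe set, and in the Ccl17 row blue and red follow the labelled genotype.

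Because these 3 arrays stand apart, no correlation over all arrays is given. Over the other 7 arrays, 4 labelled KO and 3 labelled WT, chosen after the values were seen, 36 pairs among the 9 genes that were not dim were computed with group means removed. Permuting arrays within each group gave 144 arrangements and no p below 0.00694, and 4 of the 36 pairs had an exact permutation p below 0.05 before adjustment by Benjamini-Hochberg and 0 after it. The median r was 0.078 and 20 of 36 were above 0. The closest pair was Ccl5 with Cxcl10, at Pearson r = 0.968 (exact permutation p = 0.00694, the smallest possible, adjusted 0.25) and Spearman rho = 0.964 (exact permutation p = 0.0139, adjusted 0.417). Without the 2 arrays farthest from the median of Ccl5 r was 0.939, and over the 6 of these arrays with spike-in signal it was 0.989 (exact permutation p = 0.0278, the smallest possible). By intensity both genes put the 7 mice in one and the same order, lowest in WT replicate 1 and highest in KO replicate 4. Cxcl1 with Cxcl2 reached r = 0.88 (exact permutation p = 0.0278, adjusted 0.321) but 0.385 without the 2 farthest arrays, so that relation rests on them.

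The genes whose values over the 10 arrays ran most like the mean of the members, of 10909 compared and with group means removed, were Tgm2, AW112010, Cebpd, Gpr146, Tsg101, Parp14, Tifa and Rsad2, with r between 0.948 and 0.978. Since the 3 high arrays are among the 10, this likeness is a description only. Over the other 7 arrays r was between 0.796 (Cebpd) and 0.991 (AW112010). The genes had been picked by r over all 10 arrays, these 7 included, so this is no separate check. Tifa, an adaptor of NF-kB signalling, read 150 to 950 in labelled KO and 153 to 1208 in labelled WT mice. Rsad2, the antiviral interferon-response gene also called viperin, read 3954 to 13910 in labelled KO and 4604 to 22367 in labelled WT mice. All but Tsg101 had KO replicate 1 and WT replicates 2 and 5 as their 3 highest arrays. Markers of activated endothelium, 6 of 6 measured (1 dim, no value at 0), had sums of 2048 to 5496 in labelled KO and 2065 to 6600 in labelled WT mice, with the same 3 arrays highest. None of these 6 had an unadjusted p below 0.05, and Vcam1, Ackr1 and Sele had the smallest (0.24, -0.23 and 0.19, limma adjusted p = 0.655, 0.685 and 0.778).

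Among 28 other chemokine ligands 25 were measured, 8 of them dim. An unadjusted p below 0.05 was reached by 1 lower and 0 higher genes, and none passed the adjusted test, so 1 of 25 is no larger a share than the 14.0% of all genes in either direction. The 1 gene was Ccl22, the second known ligand of Ccr4 beside Ccl17. Ccl22 read 42.7, 8.52, 7.18, 8.64 and 19.1 in labelled KO mice, against 49.4, 41.4, 36.3, 21.5 and 41.5 in labelled WT mice. KO replicate 1 lay within the WT range and the other 4 below it, and the difference was -0.78 (SE 0.31, limma adjusted p = 0.3203). Ccl28, the mucosal chemokine, and Ccl20, the ligand of Ccr6, came next (-0.38 and -0.33, limma adjusted p = 0.407 and 0.409). Ccl20 was dim, at 1.29 to 3.41 in labelled KO and 3.99 to 9.5 in labelled WT mice. Its difference was -1.30 and -0.10 with pseudocounts of 1 and 64. Cx3cl1, the neuronal chemokine fractalkine and the gene beside Ccl17 on the chromosome, differed by 0.50 (SE 0.28, limma adjusted p = 0.455) and is named after its value was seen. The median over the 25 was -0.33, and -0.15 after quantile normalization, beside -0.09 and 0.00 over all genes.

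**Figure D5:**
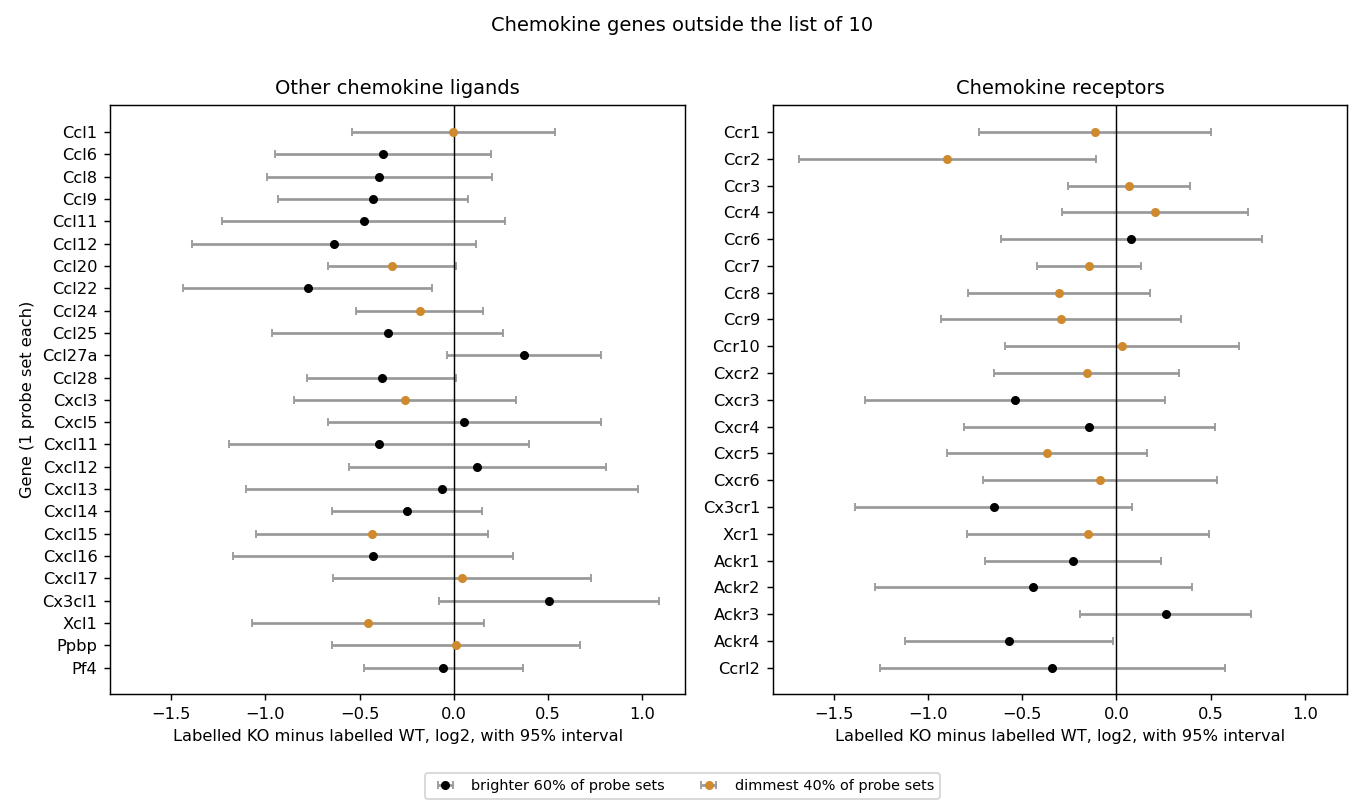
Difference between labelled KO and labelled WT arrays, log2 with 95% interval, for the 25 other chemokine ligands (left) and the 21 chemokine receptors (right), 1 probe set a gene, orange where it is among the dimmest 40%. The intervals of Ccl22, Ccr2 and Ackr4 lie below 0, and no gene passed the adjusted test.

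Of 23 receptor genes 21 were measured, and 12 were dim. Unadjusted p was below 0.05 for 2, both lower, against 8.68% of all genes in that direction. The 2 were Ccr2 and the scavenging receptor Ackr4 (-0.57, SE 0.26, limma adjusted p = 0.382). Cx3cr1, the fractalkine receptor of microglia, was next. Ccr4, the receptor of Ccl17, was dim and differed by 0.21 (limma adjusted p = 0.738). Ackr1, which carries chemokines across venous endothelium, differed by -0.23 (limma adjusted p = 0.685) and by 0.05 with median centring.

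Among 26 genes of the pathways that induce chemokines (receptors, cytokines, NF-kB and interferon regulatory factors) 24 were measured, 4 of them dim. Of these 6 were lower and 0 higher at an unadjusted p below 0.05, against 8.68% and 5.32% of all genes, and none passed the adjusted test. Irf1, the interferon-inducible transcription factor, differed by -0.74 (SE 0.20, limma adjusted p = 0.169). Tnf was dim, and its groups did not overlap, as at 2.42% of all probe sets in the lower direction. Its difference was -0.86 (SE 0.27, adjusted p = 0.215). Il1b, the cytokine that signals fever to the brain endothelium, differed by -0.997 (SE 0.34, adjusted p = 0.243). Nfkbia, the inhibitor that NF-kB itself induces, differed by -0.42 (adjusted p = 0.382) and by -0.04 after quantile normalization. The median over the 24 was -0.23, and -0.13 after quantile normalization. Whether this list differs from the chemokines was not tested.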

How the data were processed

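RNA of the laser-captured preoptic region was amplified in 2 rounds and biotin-labelled, per the labels' protocols. GCOS made the deposited linear intensities, per the submitters' processing notes, and every array had one trimmed mean (200.002 without the lowest and highest 2%). How GCOS was set is not stated, and the number of arrays, 5 a group, limits the precision. Titles give group and replicate number, and the mice are separate.

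Gene names are those of GEO's annotation of the platform and may be dated. It named 1 gene for 34945 of 45101 probe sets (34741 matched RefSeq GRCm38.p6), several for 932, none for 9160 and controls for 64. All 45037 non-control probe sets were tested as log2(intensity + 16) by limma 3.58.1 (lmFit, eBayes with trend) in R 4.3.3 with data.table (version 1.17.8), genotype as the only term, Benjamini-Hochberg over all. Dim means among the dimmest 40% of probe sets (mean log2 value up to 5.09). Other tables used Python 3.11.15, pandas 2.3.3, numpy 2.4.6, scipy 1.17.1 and matplotlib 3.10.9. The procedure was tested on simulated data. No 2 arrays shared more than 0.00443% of values.

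Named genes are all members, Ptges, the 3 genes of smallest p of each list the text uses, a few receptors and cytokines set by name, and the 8 genes most like the members. Alternatives were quantile normalization, median centring, pseudocounts of 1 and 64, 2 filters, array weights, no trend, the replicate number, spike-in signal or hybridization signal in the fit, only arrays with spike-in signal, and each array left out. The members, lists and settings were chosen with earlier results of these data known.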

Additional observations from a re-analysis of the deposited data

Results flagged for a closer look

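In each group of 5, the gap between the highest or lowest array and its nearest neighbour was divided by the group's whole range. Values were on the log2 scale used for the differences, so the ratios are not those of the linear intensities printed above. Dixon's 95% critical value was taken as the limit, and which groups exceed it depends on that scale. Of 26 groups looked at, 4 exceeded it, and chance alone exceeds it in about 1 group in 20. KO replicate 1 stood above the other labelled KO arrays for Cxcl1 at 1457644_s_at (0.751) and 1441855_x_at (0.738) and for Cxcl2 (0.735). KO replicate 3 stood below the others for Ccl3 (0.791). The Cxcl1 and Cxcl2 values come from 1 mouse and the 2 Cxcl1 probe sets share a transcript, so they are not separate cases. No labelled WT group exceeded the limit.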

How the results depend on the processing

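Of 278 values of single chemokine probe sets under other settings, 245 kept their direction and stayed above the adjusted threshold, and 33, at 8 of 13 probe sets, changed sign. The cause of the changes below was not tested. Over only the arrays with spike-in signal, the median of the 13 became 0.64, Ccl3 0.13, Ccl5 0.87, Cxcl1 1.03 (1441855_x_at) and 0.88 (1457644_s_at), Cxcl9 0.28, Cxcl10 0.72 and Ifng -0.15. With the hybridization covariate 4 member probe sets had an unadjusted p below 0.05 (Ccl3, Ccl4, Ccl7 and Ccl17, against 7.52% of all probe sets), and Cxcl1 at 1419209_at was -0.24, Cxcl2 -0.50 and Cxcr3 0.027. Median centring gave 550 called probe sets in all, 0 of them chemokines of the list, and Cxcl1 at 1441855_x_at 0.021, Cxcl9 0.027, Cxcl10 0.062, Cxcr2 0.12 and Ackr1 0.048, while Ptges passed (1.88, limma adjusted p = 0.0143). The spike-in block gave 0.034, 0.053 and 0.10 for Cxcl1 at 1441855_x_at, Cxcl9 and Cxcl10, array weights -0.13 for Cxcl2, and pseudocount 1 gave 0.0195 for Cxcl9. With 1 probe set per gene 8 genes were called in all, no member among them, and 1 member gene had an unadjusted p below 0.05 (17.2% of all genes). Leaving out single arrays, the calls over all probe sets were 0 to 1 (1 without KO replicate 1 or 4), the member count at an unadjusted p was 2 to 3, and the member median -0.86 to 0.20. It was above 0 without WT replicate 2 or 5. The ranges were -0.86 to 0.21 for Ccl5, -0.33 to 0.52, -0.90 to 0.24 and -0.97 to 0.15 for Cxcl1 at 1419209_at, 1441855_x_at and 1457644_s_at, -0.61 to 0.52 for Cxcl2, -0.92 to 0.31 for Cxcl9, -0.82 to 0.19 for Cxcl10 and -0.26 to 0.0015 for Cxcr2. Of 316 values of 15 other named genes, 5 changed sign and 1 passed newly. The 15 were Ccr2, Ackr4, Cx3cr1, Ccl22, Ccl28, Ccl20, Irf1, Tnf, Il1b, Cxcr2, Cxcr3, Ackr1, Ifng, Nfkbia and 1 probe set of Ptges. Named genes outside these 15, Csf1r, Esam, Gfap and Gad1 among them, were not part of this count.

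Arrays of the same replicate number did not vary together (correlations -0.09 to 0.045, and 1 of 5 numbers had its own partner as the best). Such correlations cannot show whether mice of the same number were bred or handled together, so pairing was not settled. With the replicate block 1 probe set was called in all, against 0 without it, and no member.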

Other observations

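In KO replicate 4, Selp and Icam1 of the activated endothelium list were high while Cxcl2 and the brightest Cxcl1 probe set were not. Selp, the P-selectin that starts leukocyte rolling, read 751.5, 87.3, 281, 914 and 95.2 in labelled KO mice, against 114, 439.6, 88.5, 241.5 and 1212 in labelled WT mice. KO replicate 4 was thus the second highest of the 10 for Selp and the third highest for Icam1 (1108), while its Cxcl1 (2550 at 1457644_s_at) and Cxcl2 (66.2) lay among the lower arrays. At the dimmer Cxcl1 probe set, 1419209_at, it read 118 and was the fourth highest, so the contrast does not hold for every Cxcl1 probe set. By the summed intensity of all 6 markers of that list KO replicate 4 was the fourth highest, and Sele read 6.65 there, within the range of the other labelled KO mice (4.77 to 22.9). The neutrophil marker S100a8 likewise was highest in WT replicate 4 (556), followed by WT replicate 5 (351) and KO replicate 4 (333), and lower in KO replicate 1 (263), the mouse with the most Cxcl1. These genes were picked after their values were seen, lie outside the rule for named genes, and have no test here.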
